A study of Mus musculus with 6 samples.

Results

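Lsd1 promoter occupancy is described here for 55 cell cycle and cell cycle exit genes, of 26180 mouse genes with a curated RefSeq transcription start site (TSS) on mm10. The genes were listed by function: 11 inhibitors and growth arrest genes, 11 E2F and pocket protein genes, 13 cyclins and Cdks, 9 replication genes, 9 mitotic and Cdc25 genes, and 2 Myc genes. A peak was counted at a promoter when its centre lay within 2000 bp of any TSS of the gene, and as a gene body peak when its centre lay within the gene but further than that from each of its TSSs. The study asked how the histone demethylase Lsd1 steers muscle precursors between muscle and brown fat, and mapped Lsd1 by ChIP-seq in C2C12 cells, a mouse myoblast line that withdraws from the cell cycle when it forms myotubes. Wild-type cells were sampled on day 1 of myogenic differentiation in 2% horse serum, and on day 1 of adipogenic differentiation in 10% FCS with isobutylmethylxanthine, indomethacin, dexamethasone, insulin, T3 and rosiglitazone. LSD1(OE) cells, the genotype labelled as overexpression, were sampled on day 1 in the same adipogenic medium. They are a stable C2C12 line that carries Flag-tagged LSD1 behind a tetracycline-dependent promoter, was selected with G418 and received doxycycline before and during differentiation, so overexpression, doxycycline and the selected line cannot be told apart, and no LSD1(OE) library from myogenic medium was analysed here. All cells were at passage 3 to 5.

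Cells leave the cell cycle for good when they become muscle. Cdk inhibitors hold the cyclin-dependent kinases inactive, the pocket proteins Rb1, Rbl1 and Rbl2 then stay bound to E2F factors, and E2F target genes for DNA replication and mitosis fall silent. Lsd1, encoded by Kdm1a, removes methyl groups from histone H3 lysine 4 within corepressor complexes, and it has also been tied to gene activation in muscle cells.

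Each condition had 1 ChIP and 1 input library, so every difference between conditions is a difference between single libraries, and no test was made. In the order myogenic, adipogenic and LSD1(OE), which is kept throughout, 46155625, 63915769 and 55193310 ChIP tags gave 43426, 18893 and 33533 peaks, the weakest with 27, 35 and 30 tags. A gene without a peak had no signal detectable at this depth. The score is 10 times −log10 of the peak caller's p-value, with a minimum of 50. Scores depend on the numbers of ChIP and input tags and were read as strength within a library, and the enrichment given for a peak is over its local background and is likewise not compared between libraries. The FDR of a peak given with its coordinates at a promoter was 0% unless another value stands beside it. Tag density, the tags of a peak per kb of its length and per 1000000 ChIP tags, was used to set libraries side by side. Its 95% exact Poisson intervals cover counting error only. Peak lists hold no measure of LSD1 expression, so the overexpression was not checked here.

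Some of the reference promoters of these genes hold sequence elements known from cell cycle promoters. RefSeq promoter sequences on GRCm38.p6 (mm10) were matched for 44 of the 55 genes. The 8-base cores bound by E2F (TTTCCCGC, TTTCGCGC, TTTGCCGC or TTTGGCGC on either strand) are printed here in capitals, within 30 bases of the coding strand from genes that differed in Lsd1 peaks. Mcm6 and E2f7 had promoter peaks in all 3 libraries, Cdk2 in 2, Cdc6 and Cdc25a in the myogenic library alone, and Mcm5 in none.
Mcm6, chr1:128359797-128359826, minus strand: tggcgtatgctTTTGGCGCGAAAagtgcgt
E2f7, chr10:110745230-110745259, plus strand: cccgcgtccccGCGGGAAAcgctcccgcgt
Cdk2, chr10:128705173-128705202, minus strand: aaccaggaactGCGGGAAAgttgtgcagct
Cdc6, chr11:98908002-98908031, plus strand: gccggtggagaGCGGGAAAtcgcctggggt
Cdc25a, chr9:109875501-109875530, plus strand: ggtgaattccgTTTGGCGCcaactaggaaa
Mcm5, chr8:75109345-75109374, plus strand: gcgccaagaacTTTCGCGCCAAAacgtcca
In Mcm6 and Mcm5 the capitals run over 2 overlapping cores.

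The cell cycle homology region (CHR, TTTGAA or its reverse complement TTCAAA) is an element of promoters that are active late in the cell cycle. Windows with the CHR core in capitals are shown for E2f8 and Cdc20, with promoter peaks in the myogenic and LSD1(OE) libraries. They are also shown for Cdk1 and Mcm2, with peaks in the myogenic library alone, and for Ccnb2 and Mki67, with none. The LSD1(OE) peak of Cdc20 lies downstream of the printed window and does not cover it.
E2f8, chr7:48881598-48881627, minus strand: agcgggttaatTTCAAAtcgggggctggac
Cdc20, chr4:118437344-118437373, minus strand: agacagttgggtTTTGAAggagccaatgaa
Cdk1, chr10:69352913-69352942, minus strand: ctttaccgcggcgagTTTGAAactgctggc
Mcm2, chr6:88898832-88898861, minus strand: gggctcagcctTTTGAAagctgtgggcggg
Ccnb2, chr9:70421703-70421732, minus strand: agggactagaaTTTGAAaataagactgtag
Mki67, chr7:135716459-135716488, minus strand: cgccgttttggTTTGAAtcgggcgggctgc

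The 250 bases upstream of the start are given for the inhibitor genes with the highest scores, Gadd45b and Cdkn1a (the downstream of its 2 TSSs, which the strong peaks cover), and for Mcm6, whose E2F cores are in capitals. Neither inhibitor sequence holds an E2F core in these letters.
Gadd45b, chr10:80929841-80930090, plus strand: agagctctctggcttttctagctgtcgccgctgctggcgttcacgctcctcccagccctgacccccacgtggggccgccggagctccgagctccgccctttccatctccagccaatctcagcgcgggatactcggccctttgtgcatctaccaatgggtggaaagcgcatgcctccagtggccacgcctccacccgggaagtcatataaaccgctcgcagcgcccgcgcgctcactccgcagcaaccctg
Cdkn1a, chr17:29093519-29093768, plus strand: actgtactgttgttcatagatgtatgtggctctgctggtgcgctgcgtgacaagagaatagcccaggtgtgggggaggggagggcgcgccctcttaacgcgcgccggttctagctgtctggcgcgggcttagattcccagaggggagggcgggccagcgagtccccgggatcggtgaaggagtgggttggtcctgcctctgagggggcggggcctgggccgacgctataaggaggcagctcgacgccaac
Mcm6, chr1:128359706-128359955, minus strand: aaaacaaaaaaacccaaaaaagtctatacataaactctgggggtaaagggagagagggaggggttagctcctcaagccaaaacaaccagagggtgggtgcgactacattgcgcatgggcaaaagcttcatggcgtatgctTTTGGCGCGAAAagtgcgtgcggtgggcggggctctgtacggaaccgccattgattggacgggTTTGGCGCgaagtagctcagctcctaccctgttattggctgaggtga

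Lsd1 was found at the promoters of most of these genes in myogenic medium, of 43 of 55 (78.2%), where 46.8% of all genes had a promoter peak. In adipogenic medium the count was 28 (50.9%), beside 27.0% of all genes. In LSD1(OE) cells it was 35 (63.6%), beside 37.3%. The share of members thus lay above that of all genes in each library, and it was lowest in wild-type cells in adipogenic medium, as it was for all genes. With equal numbers of the strongest peaks in each library the order of the members turned, to 35, 28 and 26 genes, so that LSD1(OE) was lowest, while among all genes the adipogenic share stayed lowest (36.4, 27.0 and 29.1%). Most of these genes have CpG-rich promoters, where Lsd1 peaks were more frequent in every library. Among genes with a reference promoter of CpG ratio 0.6 or above, a promoter peak was present in 78.7% of all 9546 genes and in 78.0% of the 41 members in the myogenic library, in 47.1 and 51.2% in the adipogenic library, and in 62.6 and 63.4% in the LSD1(OE) library. Set beside other genes with CpG-rich promoters, these 41 cell cycle genes had promoter peaks about as often. Among 9982 genes below that ratio the shares were 21.0, 10.7 and 16.3%, and of the 3 members among them 2, 1 and 1 had a promoter peak. The 11 members without a reference promoter are not in this comparison. This split was chosen after the data had been seen.

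Promoter peaks in all 3 libraries were present at 25 members (45.5%), beside 23.5% of all genes. They were Cdkn1a, Cdkn1b, Cdkn2c, Cdkn2d, Gadd45a, Gadd45b, Gadd45g, Btg1, Btg2, Rb1, Rbl1, E2f1, E2f2, E2f3, E2f5, E2f7, Ccnd1, Ccne2, Cdk4, Cdk6, Cdt1, Mcm6, Mcm7, Pcna and Aurkb. At E2f2 the myogenic promoter peak lay at a different TSS from the adipogenic and LSD1(OE) ones. Longer adipogenic and LSD1(OE) peaks also cover the TSS of the myogenic peak, with centres outside the promoter window. E2f4, E2f8, Ccnd3, Cdk2, Mcm4, Cdc20 and Plk1, 7 members (12.7%), had a peak in the myogenic and LSD1(OE) libraries but not in wild-type adipogenic cells, beside 10.8% of all genes. The myogenic library alone had one at 8 members (14.5%), E2f6, Ccna2, Cdk1, Cdc6, Mcm2, Mcm3, Cdc25a and Aurka, beside 9.98% of all genes. Rbl2, Cdc25b and Myc had promoter peaks in both wild-type libraries only, a pattern of 2.53% of all genes. A long LSD1(OE) peak nevertheless covers Myc, with its centre outside the promoter window. Ccnb1, Ccnd2 and Ccne1 had promoter peaks in LSD1(OE) cells only, a pattern of 2.59% of all genes. No member had a promoter peak in the adipogenic library without one in the myogenic library. Over all genes, 96.5% of the 7063 with an adipogenic promoter peak also had a myogenic one. The remaining 9 (16.4%), beside 49.7% of all genes, had no promoter peak.

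The role groups differed in how many of their promoters had a peak in adipogenic medium. The inhibitors and growth arrest genes gave 9 of 11 in every library. The E2F and pocket protein genes gave 11 of 11 in the myogenic, 8 in the adipogenic and 9 in the LSD1(OE) library. The cyclins and Cdks gave 8, 4 and 9 of 13, the replication genes 8, 4 and 5 of 9, and the mitotic and Cdc25 genes 6, 2 and 3 of 9. The shares of all genes were 46.8, 27.0 and 37.3%. The groups are small, and their counts moved with the threshold. With equal numbers of the strongest peaks the replication genes gave 5, 4 and 4, and in the LSD1(OE) library the cyclins and Cdks gave 5 and the mitotic and Cdc25 genes 1.

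**Figure D1:**
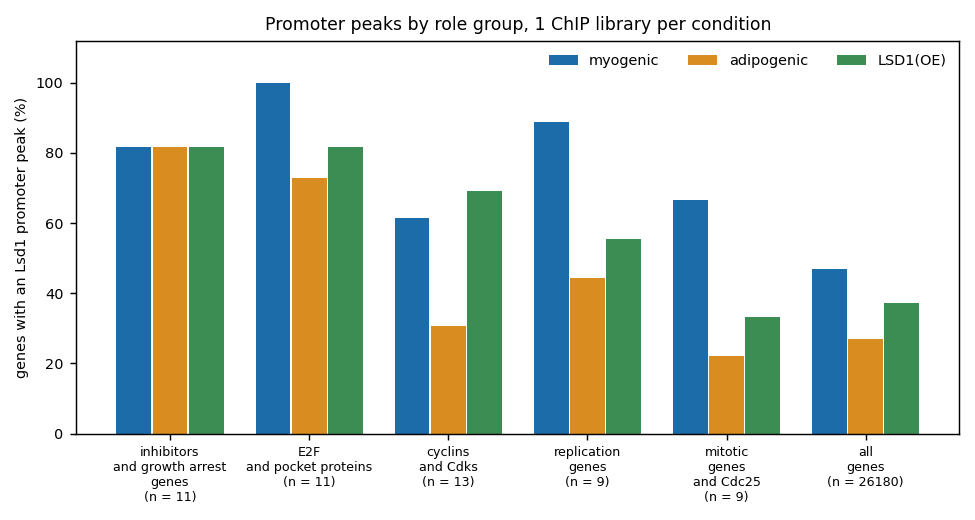
Percentage of genes with an Lsd1 promoter peak (y axis) in each role group and among all genes (x axis, with the number of genes), 1 bar per ChIP library and no error bars because there was 1 library per condition. Inhibitors and growth arrest genes stand at 81.8% in all 3 libraries, while replication genes stand at 88.9, 44.4 and 55.6% in the myogenic, adipogenic and LSD1(OE) libraries. The 2 Myc genes are not drawn.

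The inhibitors and growth arrest genes carried the strongest promoter peaks of the groups of 9 or more genes in the myogenic library, with a median score of 771 for the strongest peak of a gene, beside 319 over all genes with a promoter peak. The medians were 206 in the adipogenic library (all genes 141) and 416 in the LSD1(OE) library (all genes 204). Cdkn1a encodes p21, the Cdk inhibitor that rises when myoblasts differentiate. Its myogenic peak at chr17:29092964-29096052 held 313 tags at a score of 1545, enriched 5.98-fold, had its centre 739 bp into the gene, within an intron, and stood above 97.7% of all promoter peaks of that library. In adipogenic medium the peak at chr17:29093398-29094970 held 145 tags at a score of 309, enriched 4.13-fold. In LSD1(OE) cells the peak at chr17:29093339-29095961 held 264 tags at a score of 1022, enriched 3.07-fold. All of these overlap and cover the TSS, and each had an FDR of 0%. The tag density at Cdkn1a was 2.20 (95% interval 1.96 to 2.45) in the myogenic, 1.44 (1.22 to 1.70) in the adipogenic and 1.82 (1.61 to 2.06) in the LSD1(OE) library, so the myogenic and adipogenic intervals do not overlap and the LSD1(OE) interval overlaps both. Weaker peaks at Cdkn1a lay at different places. Those of the myogenic and LSD1(OE) libraries, with scores of 57.4 and 85.3, lay at the upstream TSS, where the adipogenic library had none. The weaker adipogenic peak, chr17:29095018-29096075, held 81 tags at a score of 60.2, with 0.49% FDR. It overlaps the strong myogenic and LSD1(OE) peaks, and the adipogenic density above leaves it out.

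Cdkn1b encodes p27, which restrains cyclin E and cyclin A kinases. Its myogenic peak, chr6:134919317-134921248, held 171 tags at a score of 802, enriched 3.74-fold. The adipogenic peak, chr6:134919821-134920841, held 81 tags at a score of 137, enriched 3.32-fold, with 0.08% FDR. In LSD1(OE) cells the peak chr6:134919519-134921205 held 118 tags at a score of 282, enriched 2.51-fold. All 3 were centred within 119 bp upstream of the TSS. Tag densities were 1.92 (1.64 to 2.23), 1.24 (0.986 to 1.54) and 1.27 (1.05 to 1.52), so the LSD1(OE) value lay beside the adipogenic one, unlike at Cdkn1a.

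Cdkn2c (p18) and Cdkn2d (p19) inhibit Cdk4 and Cdk6. At Cdkn2c the peaks held 162 tags with a score of 771 in the myogenic library (chr4:109665874-109667685, 5.56-fold enriched), 99 tags with 143 in the adipogenic library (chr4:109666362-109667699, 3.09-fold, FDR 0.08%) and 159 tags with 416 in the LSD1(OE) library (chr4:109665258-109667675, 2.69-fold). The centres lay 23 and 274 bp upstream and 290 bp downstream of the TSS. Cdkn2d had 119 tags with a score of 478 (chr9:21290577-21292092, 3.21-fold enriched), 85 tags with 132 (chr9:21290768-21291878, 3.44-fold, FDR 0.08%) and 88 tags with 228 (chr9:21290621-21291832, 2.69-fold, FDR 0.01%), centred 125, 114 and 17 bp upstream. Tag densities of Cdkn2c were 1.94, 1.16 and 1.19, averaged over peaks of 1812, 1338 and 2418 bp. Those of Cdkn2d were 1.70, 1.20 and 1.32. In both genes the myogenic density was the highest and the other libraries lay close to each other. By contrast Cdkn2a and Cdkn2b, neighbours on chromosome 4 that encode p16, Arf and p15, had no peak in any library. They lie in a stretch without any peak of 246, 379 and 247 kb in the myogenic, adipogenic and LSD1(OE) libraries, and the centre nearest to a Cdkn2a TSS was 24035, 153906 and 24279 bp away. Peak lists do not say whether these sequences are present in the cells, which was not tested.

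The Gadd45 genes, which encode stress-induced growth arrest proteins, all had peaks in the 3 libraries. Gadd45b had the highest score of the group in the myogenic library, 1750 with 294 tags, enriched 4.70-fold, at chr10:80928321-80931008, with the summit at −1282 bp from the TSS. In adipogenic medium its peak at chr10:80928239-80931297 held 272 tags at a score of 507, enriched 4.11-fold, and in LSD1(OE) cells the peak at chr10:80928257-80931134 held 272 tags at a score of 945, enriched 3.29-fold. The summit lay at −1352 and −1284 bp, close to its myogenic place. The tag density was 2.37 (2.11 to 2.66), 1.39 (1.23 to 1.57) and 1.71 (1.51 to 1.93). Gadd45g scored 939 (190 tags, 6.20-fold enriched, chr13:51845256-51847311), 247 (221 tags, 3.15-fold, FDR 0.03%, chr13:51845090-51847726) and 587 (168 tags, 4.55-fold, chr13:51845411-51847317), centred 392, 267 and 311 bp upstream. The summits of Gadd45g lay 18, 96 and 67 bp downstream of the TSS. Gadd45a scored 684, 106 and 375, and its start is shared with the noncoding gene E230016M11Rik. Btg1 and Btg2, antiproliferative genes of 1 family, scored 659, 206 and 249, and 435, 253 and 455. The tag density of Btg2 was 1.82 in the myogenic, 1.44 in the adipogenic and 1.37 in the LSD1(OE) library, over peaks of 1488, 1278 and 2588 bp. The LSD1(OE) peak also overlaps a second myogenic peak, with a score of 230 and a density of 1.48.

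**Figure D2:**
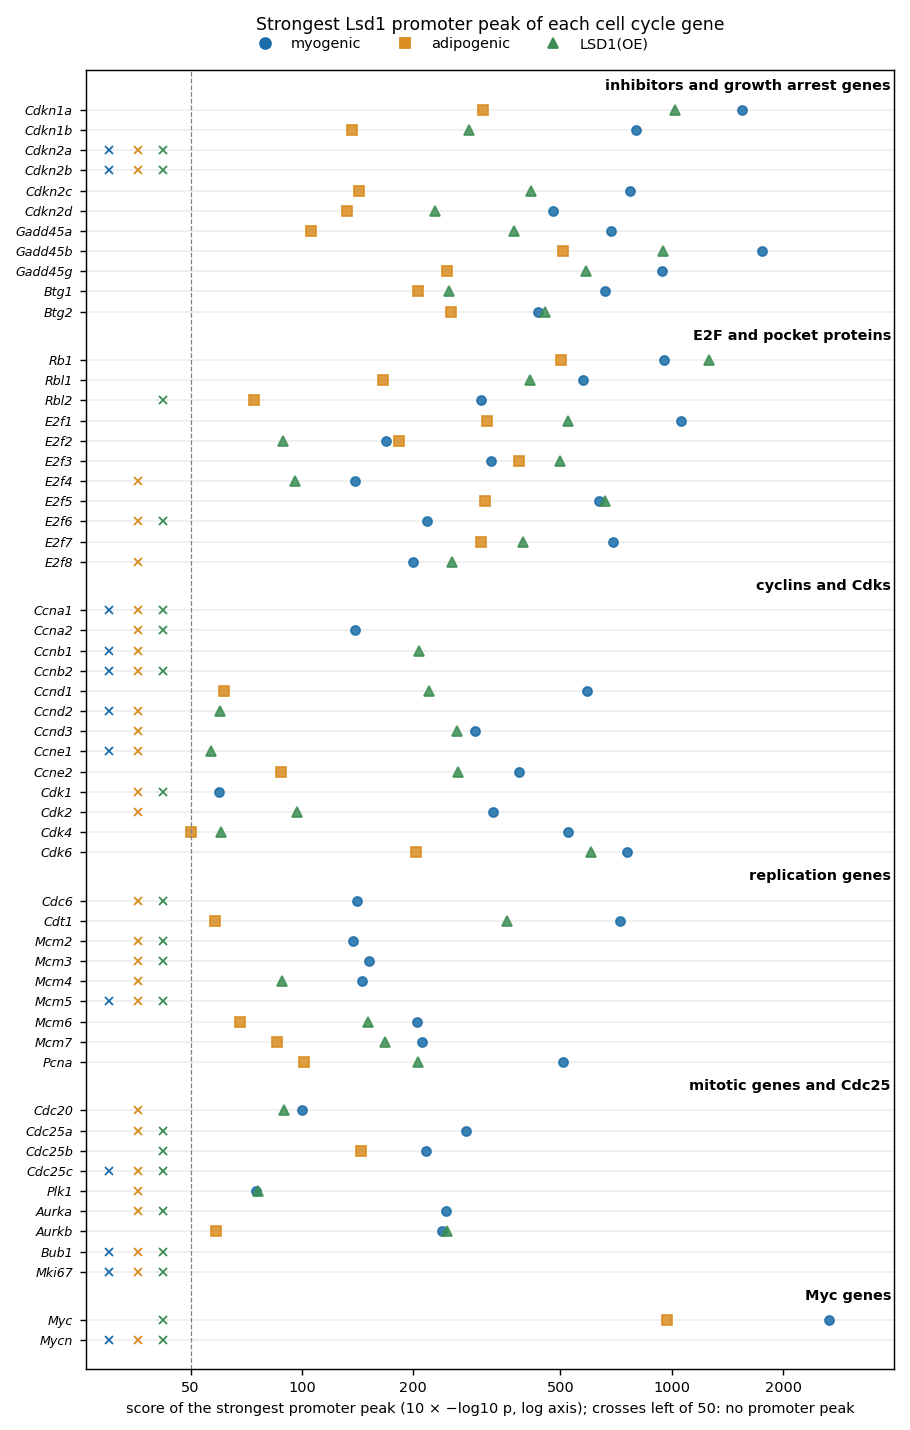
Score of the strongest Lsd1 promoter peak (x axis, 10 times −log10 p, log scale, minimum 50 at the dashed line) of each of the 55 genes (y axis, by role), with 1 symbol per library and crosses left of the line for no promoter peak. Myogenic scores of inhibitors and growth arrest genes lie between 435 and 1750 and those of replication genes between 137 and 723. Scores depend on the tag numbers of a library and are read as ranks within it.

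The E2F and pocket protein genes had peaks at 11 of 11 promoters in the myogenic library, but their median top score there, 325, was close to that of all genes (319). In the adipogenic library their median was 309, above that of the other groups with at least 9 genes and above 141 over all genes, and in the LSD1(OE) library it was 413. Rb1, the retinoblastoma pocket protein, scored 954 with 218 tags, enriched 3.40-fold, at chr14:73324223-73326799 in the myogenic library, and 501 with 182 tags, enriched 7.22-fold, at chr14:73324532-73326187 in the adipogenic library. In LSD1(OE) cells its peak at chr14:73324240-73326279 held 243 tags at a score of 1258, enriched 5.85-fold, the highest promoter score of any member in that library. Centres lay 311 to 563 bp into the gene, within an intron. The density was 1.83 (1.60 to 2.09), 1.72 (1.48 to 1.99) and 2.16 (1.90 to 2.45), over peaks of 2577, 1656 and 2040 bp. The intervals of the wild-type libraries overlap and the LSD1(OE) value is the highest. Rbl1 (p107) scored 574, 166 and 413, and Rbl2 (p130), the pocket protein of resting cells, 306 and 74.2 with no LSD1(OE) promoter peak.

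E2f1, an activator of S phase genes, scored 1057 with 273 tags, enriched 3.44-fold, at chr2:154568111-154571548 in the myogenic library. The adipogenic peak at chr2:154568478-154569859 held 136 tags at a score of 316, enriched 5.34-fold, and the LSD1(OE) peak at chr2:154568418-154571427 held 206 tags at a score of 523, enriched 2.79-fold. The centres lay 63 and 258 bp downstream and 30 bp upstream of the nearest of its TSSs. At E2f7, a repressive E2F, the values were 692 with 144 tags (chr10:110744664-110746266, 3.95-fold enriched), 305 with 152 tags (chr10:110744246-110745939, 3.78-fold, FDR 0.04%) and 395 with 150 tags (chr10:110744164-110745977, 2.67-fold), centred 26 bp downstream and 347 and 369 bp upstream. E2f5, which works with Rbl2 in resting cells, gave 637 with 163 tags (chr3:14578065-14580256, 3.74-fold), 312 with 130 tags (chr3:14578018-14579319, 6.08-fold) and 660 with 170 tags (chr3:14577923-14579722, 3.99-fold). E2f5 was centred 489 bp downstream, 3 bp upstream and 151 bp downstream. Its densities of 1.61 (1.37 to 1.88), 1.56 (1.31 to 1.85) and 1.71 (1.46 to 1.99) have overlapping intervals, over peaks of 2192, 1302 and 1800 bp. A weaker adipogenic peak of E2f5, chr3:14579398-14580291, held 59 tags at a score of 69.9, with 0.40% FDR. It overlaps the myogenic and LSD1(OE) peaks, and the adipogenic density above leaves it out. E2f3 had densities of 1.5, 1.61 and 1.54 and scores of 325, 387 and 497, over peaks of 1397, 1560 and 1810 bp. E2f3 was the only member whose adipogenic density was above its myogenic density at overlapping promoter peaks.

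E2f4, the main repressor E2F of resting cells, had weaker peaks of 140 and 95.5 in the myogenic and LSD1(OE) libraries, and its start lies beside that of Exoc3l. E2f8 scored 199 and 254.5 in these libraries, and E2f6 scored 218 in the myogenic library alone. E2f2 had modest promoter peaks of 168, 183 and 88.8, at different TSSs. The myogenic peak lay at the upstream TSS, and the adipogenic and LSD1(OE) peaks lay at the downstream TSS. When only the most upstream TSS was used, E2f2 had a promoter peak in the myogenic library alone. Longer adipogenic and LSD1(OE) peaks cover that TSS too, but their centres lay outside the window. Beside the promoter peaks of E2f2 lay the highest scores of any peak at these genes. A peak of 5714 bp at chr4:136173429-136179142 held 610 tags in the myogenic library with a score of 3100, a value that 40 peaks of that library share and that may stand for a p-value too small to write. In the adipogenic library chr4:136172235-136176322 held 450 tags with a score of 1217 and chr4:136176555-136179077 held 374 tags with 1467. The first of them covers the upstream TSS, and its centre, 2004 bp downstream of that TSS, lay just outside the promoter window. In LSD1(OE) cells 1 peak of 7223 bp at chr4:136172125-136179347 held 782 tags, also at 3100. It covers the upstream TSS as well, with its centre 3462 bp downstream. The same domain between the 2 TSSs of E2f2 was thus called in every library, and was divided differently.

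**Figure D3:**
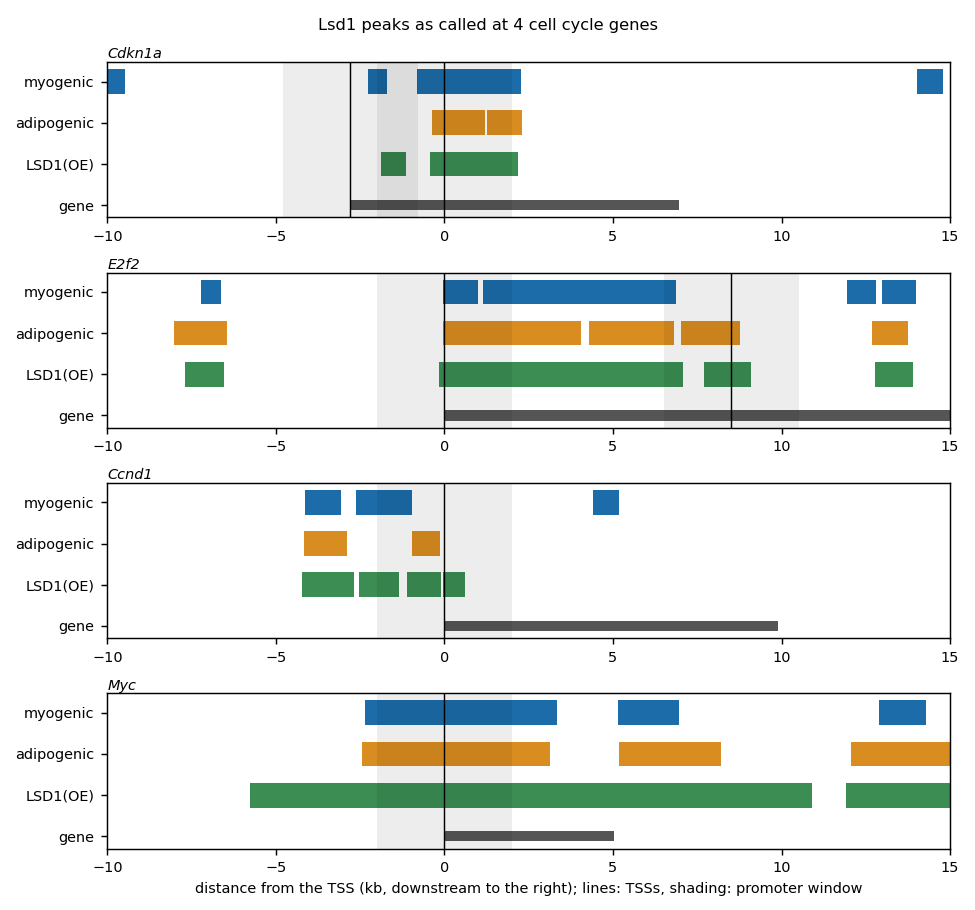
Lsd1 peaks as called in the myogenic (blue), adipogenic (orange) and LSD1(OE) (green) libraries at Cdkn1a, E2f2, Ccnd1 and Myc, with the gene in grey. The x axis is the distance in kb from a TSS of the gene, vertical lines are TSSs and shading is the promoter window of 2000 bp either side. At E2f2 the broad peaks fill the stretch downstream of the start in all 3 libraries, and at Myc the LSD1(OE) peak is 16675 bp long. At Ccnd1 most peaks lie upstream, apart from a myogenic peak within the gene and an LSD1(OE) peak over the TSS.

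Among the cyclins and Cdks, the kinases of G1 and their cyclin Ccnd1 had the highest scores in the myogenic library. Cdk6 scored 756 with 196 tags, enriched 3.56-fold (chr5:3342841-3345133), in the myogenic, 203 with 203 tags (chr5:3342535-3345115, 3.11-fold, FDR 0.04%) in the adipogenic and 606 with 245 tags (chr5:3341779-3344910, 2.71-fold) in the LSD1(OE) library. Its peaks were centred 94 bp downstream and 68 and 549 bp upstream of the TSS, next to the start of Gm36470. Ccnd1, cyclin D1, scored 588 with 138 tags, enriched 3.53-fold, at chr7:144940783-144942461 in the myogenic library, 1791 bp upstream. In adipogenic medium its peak at chr7:144939951-144940809 held 55 tags at a score of 61.6, enriched 2.98-fold, with 0.45% FDR, 549 bp upstream. These 2 peaks overlap only at their ends and neither covers the TSS. LSD1(OE) cells had 3 promoter peaks at Ccnd1 with scores of 221, 198 and 62.0, the strongest at chr7:144941187-144942370 with 86 tags, enriched 2.96-fold, with 0.01% FDR, 1947 bp upstream, and the third covering the TSS.

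Cdk4, the partner of the D cyclins, had a strong peak in the myogenic library only. Its myogenic peak at chr10:127062847-127064740 held 141 tags at a score of 523, enriched 3.53-fold, while the adipogenic peak at chr10:127063129-127064069 held 64 tags at a score of 50.04, close to the minimum, enriched 2.60-fold, with 0.72% FDR. The LSD1(OE) peak at chr10:127062842-127063668 was also weak, with 47 tags at a score of 60.3, enriched 1.86-fold, with 0.35% FDR. Centres lay 258 and 64 bp downstream and 280 bp upstream. Ccne2, cyclin E2, scored 387 with 106 tags (chr4:11190246-11191686, 3.10-fold enriched), 88.0 with 74 tags (chr4:11190654-11191772, 2.41-fold, FDR 0.25%) and 265 with 105 tags (chr4:11190073-11191533, 2.79-fold), centred 385, 138 and 548 bp upstream. Ccnd3, the D cyclin of differentiating muscle, had promoter peaks in the myogenic (293) and LSD1(OE) (262) libraries, and so had Cdk2 (329 and 97.2), which shares its promoter with Pmel.

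The cyclins and the kinase of mitosis had few or weak peaks. Cdk1 had 2 small peaks in the myogenic library, with scores of 59.6 and 50.8 and 31 and 28 tags. Ccna2 had 1 there with a score of 139. Ccnb1, cyclin B1, had a peak in LSD1(OE) cells alone, chr13:100786276-100787549, with 88 tags at a score of 208, enriched 2.69-fold, with 0.03% FDR, centred 426 bp upstream. Ccnd2 (chr6:127150477-127151342) and Ccne1 (chr7:38106644-38107499) were also called in LSD1(OE) cells alone, with 45 and 44 tags, scores of 60.0 and 56.7, fold enrichments of 2.32 and 2.23 and FDRs of 0.35 and 0.40%. Their centres lay 139 and 419 bp downstream of the TSS. The last 2 lie near the minimum score, at percentiles 9.98 and 7.07 of the promoter peaks of that library. Ccna1 and Ccnb2 had no promoter peak.

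The replication genes had promoter peaks at 8 of 9 genes in the myogenic library, of lower score than average, with a median of 178 beside 319 over all genes. Cdt1, which licenses origins, stood out with 723 and 175 tags (chr8:122566269-122568436, 3.53-fold enriched) in the myogenic library, 58.1 with 78 tags (chr8:122567008-122568208, 2.50-fold, FDR 0.51%) in the adipogenic library and 358 with 128 tags (chr8:122566707-122568381, 2.79-fold) in LSD1(OE) cells. The centres lay 663, 407 and 471 bp upstream. Its density was 1.75 (1.5 to 2.03), 1.02 (0.803 to 1.27) and 1.38 (1.16 to 1.65), with the adipogenic interval below the myogenic one. Pcna, the sliding clamp of DNA polymerase, scored 509 with 138 tags (chr2:132252052-132253910, 3.21-fold), 101 with 76 tags (chr2:132252820-132253887, 3.21-fold, FDR 0.16%) and 206 with 86 tags (chr2:132252731-132253964, 2.79-fold, FDR 0.04%), centred 199 bp downstream and 173 and 167 bp upstream.

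The Mcm genes encode the subunits of the replicative helicase, and their values lay close together. Mcm7 scored 211 with 77 tags (chr5:138170520-138171586, 3.18-fold enriched, FDR 0.01%), 85.6 with 65 tags (chr5:138171750-138172674, 3.44-fold, FDR 0.28%) and 168 with 76 tags (chr5:138170818-138171960, 2.32-fold, FDR 0.07%), centred 213 bp downstream and 329 and 123 bp upstream. The start of Ap4m1 is nearest to the adipogenic peak, which does not overlap the myogenic one. Mcm6 had 2 myogenic peaks, 205 with 93 tags (chr1:128357304-128358925, 2.14-fold, FDR 0.01%) at 1591 bp downstream and 197 with 70 tags (chr1:128359052-128360183, 3.21-fold, FDR 0.01%) at 88 bp downstream. Over the E2F cores of the Mcm6 sequence above lay the latter peak, the adipogenic peak of 68.1 with 51 tags (chr1:128359211-128359954, 2.75-fold, FDR 0.41%) and the LSD1(OE) peak of 151 with 83 tags (chr1:128358599-128360078, 2.32-fold, FDR 0.07%). The adipogenic and LSD1(OE) peaks were centred 123 and 367 bp downstream. Mcm2 (137) and Mcm3 (152) were called in the myogenic library alone, as was Cdc6 (141), the loading factor of the helicase. Mcm4 had a myogenic (145) and an LSD1(OE) peak (88.1), which lie nearer to the start of its divergent neighbour Prkdc and do not cover the Mcm4 TSS. Mcm5, with 2 overlapping E2F cores, had none.

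In the mitotic and Cdc25 group, scores were also low. Cdc25a, a phosphatase that activates Cdk2, had a peak in the myogenic library alone, 277 with 105 tags, enriched 2.35-fold (chr9:109874862-109876606, centred 155 bp downstream). Aurka, a spindle kinase, likewise had 246 with 93 tags (chr2:172369665-172371238, 2.99-fold, FDR 0.01%, 119 bp downstream), at a start close to that of Cstf1. Of the genes with a promoter peak in the myogenic library alone, the score of the strongest peak thus ranged from 59.6 at Cdk1 to 277 at Cdc25a. Aurkb, the kinase of the chromosomal passenger complex, had a myogenic score of 239 with 75 tags (chr11:69045241-69046370, 3.31-fold enriched, FDR 0.01%, 168 bp downstream) and an LSD1(OE) score of 246 with 104 tags (chr11:69045195-69046736, 2.69-fold, FDR 0.01%, 328 bp downstream). Its adipogenic peak of 58.6 with 47 tags (chr11:69044239-69044935, 2.64-fold, FDR 0.51%) lay 1050 bp upstream and did not overlap them. Cdc25b scored 216 with 73 tags (chr2:131186231-131187345, 3.01-fold, FDR 0.01%, 160 bp upstream) and 144 with 95 tags (chr2:131185925-131187180, 3.55-fold, FDR 0.08%, 396 bp upstream) in the wild-type libraries. Cdc20 (100 and 89.5) and Plk1 (75.0 and 76.0), which drive exit from and entry into mitosis, had weak peaks in the myogenic and LSD1(OE) libraries. The LSD1(OE) peak of Cdc20 was centred 1160 bp downstream, did not cover the TSS and did not overlap the myogenic one.

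Myc, which promotes proliferation and holds back muscle differentiation, had the highest promoter score of the 55 genes. The myogenic peak at chr15:61982975-61988692 was 5718 bp long and held 607 tags at a score of 2655, enriched 4.97-fold, and the adipogenic peak at chr15:61982901-61988483 held 743 tags at a score of 968, enriched 3.99-fold. The centres lay 492 and 351 bp downstream of the TSS. In LSD1(OE) cells a single peak of 16675 bp, chr15:61979581-61996255, held 2049 tags with a score of 699. It covers the whole gene, but its centre lies 2577 bp downstream of the TSS, so Myc is not counted with a promoter peak there and is counted with a gene body peak. The density was 2.30 (2.12 to 2.49), 2.08 (1.94 to 2.24) and 2.23 (2.13 to 2.32) over these peaks, with overlapping intervals. The LSD1(OE) value is an average over a much longer region, so the densities do not compare the same stretch. Chromosome 15 as a whole had promoter peaks at 61.2, 52.1 and 57.2% of its 963 genes, above the 46.8, 27.0 and 37.3% of all genes, and its part in the values at Myc was not tested. Mycn had no peak, and the nearest centres were 1550409, 1979287 and 266078 bp away.

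The members without a promoter peak in any library were Cdkn2a, Cdkn2b, Ccna1, Ccnb2, Mcm5, Cdc25c, Bub1, Mki67 and Mycn. The nearest centre lay 42828, 11175 and 25688 bp from the TSS of Ccna1, a cyclin of the germ line, in the myogenic, adipogenic and LSD1(OE) libraries. For Ccnb2 it lay 82166, 136804 and 82335 bp away, and for Mki67, the gene of the proliferation marker Ki-67, 56957, 56707 and 110761 bp. Bub1, a checkpoint kinase, had its nearest centre at 12214, 14017 and 14130 bp, and Mcm5 at 15852, 15932 and 15788 bp. Cdc25c, the mitotic phosphatase, came closest to the window, with 7728, 7820 and 2164 bp. In none of these 9 genes was a peak centred within the gene body either.

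Where promoter peaks of 2 libraries overlapped, the tag density of the members was lower in adipogenic medium. Of 28 members bound at the promoter in both wild-type libraries, 25 (89.3%) had overlapping peaks, beside 98.8% of 6819 genes. Those of E2f2, Mcm7 and Aurkb did not overlap. The density was lower in the adipogenic library at 24 of the 25. Medians were 1.76 in the myogenic and 1.24 in the adipogenic library, with a median log2 ratio of −0.54. Over all genes 96.1% of 6739 were lower, with a median log2 ratio of −0.46, so the direction was that of the whole genome. By role, the median log2 ratio was −0.61 at 9 inhibitors and growth arrest genes, −0.61 at 4 cyclins and Cdks, −0.53 at 3 replication genes and −0.16 at 7 E2F and pocket protein genes. The 7 E2F and pocket protein genes split, with E2f3 (0.10), E2f5 (−0.04), Rb1 (−0.09) and E2f1 (−0.16) near equal density, and Rbl1 (−0.45), E2f7 (−0.47) and Rbl2 (−0.54) near the median of all genes. LSD1(OE) against myogenic gave a median of −0.36 at 30 members, of which 25 were lower, beside −0.30 over all genes. That ratio was −0.41 at the inhibitors, all 9 lower, and −0.03 at 8 E2F and pocket protein genes, of which 4 were lower. LSD1(OE) against adipogenic gave 0.13 at 24 members, 7 of them lower, beside 0.16 over all genes, and the largest gains were at Cdt1 (0.45) and Ccnd1 (0.40). These ratios share libraries with each other, and they compare single ChIPs, in which a change of medium or genotype and the yield of an immunoprecipitation cannot be told apart.

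**Figure D4:**
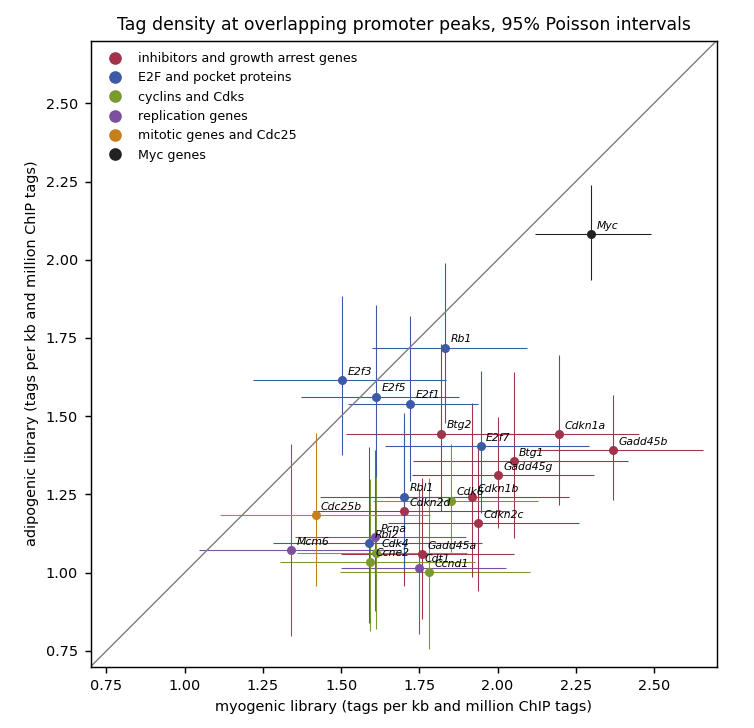
Tag density (tags per kb of peak and per 1000000 ChIP tags) of the 25 genes with overlapping promoter peaks in the myogenic (x axis) and adipogenic (y axis) libraries, coloured by role, with 95% exact Poisson intervals that cover counting error only and a line of equal density. All but E2f3 lie below the line, and Rb1, E2f1, E2f3, E2f5 and Myc lie closest to it. Peak lengths differ between the libraries, so a point does not compare equal stretches.

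Of the 43 members with a myogenic promoter peak, 28 (65.1%) also had one in the adipogenic library, beside 55.7% of all genes with a myogenic promoter peak, and 32 (74.4%) had one in LSD1(OE) cells, beside 73.3%. Of the 15 members with a myogenic but no adipogenic promoter peak, 7 (46.7%) had one in LSD1(OE) cells, beside 51.9% of all such genes. The first share lay above that of the genome, while the share kept in LSD1(OE) cells was close to it. The first share rests on 43 genes and was not set beside other genes with CpG-rich promoters.

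Gene body peaks outside the promoter were found in 12 members in the myogenic (21.4% of all genes), 7 in the adipogenic (11.2%) and 9 in the LSD1(OE) library (17.1%). These are 21.8, 12.7 and 16.4% of the members, near the shares of all genes. Ccnd3, a gene of 94.6 kb, held most, with 9, 5 and 5 such peaks, all in introns. Its intronic peaks were present in adipogenic medium although its promoter had none there. Cdk6 held 4, 3 and 3, all but 1 of them 147656 to 157785 bp downstream of its TSS, E2f2 3, 3 and 2 with the domain described above, Rb1 2, 1 and 2, and Rbl1 1, 1 and 2. A peak within Rb1, at chr14:73237577-73238573 in the myogenic library, lies at the start of Lpar6, which is nested in the gene.

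The motif content of the promoters also differed by role. An E2F core was present in 15 of 51 member promoters (29.4%), beside 2.78% of 23307 mouse promoters of the same span, from 250 bases upstream to 50 downstream of the start. By role it was found in 6 of 9 promoters of replication genes (66.7%), 4 of 10 of E2F and pocket protein genes (40.0%), 2 of 10 of cyclins and Cdks (20.0%), 1 of 7 of mitotic genes (14.3%) and 1 of 14 of inhibitors (7.14%). It was present in 12 of 40 promoters of genes with a myogenic promoter peak and in 3 of 11 without one, in 25.9 and 33.3% of those with and without an adipogenic peak, and in 24.2 and 38.9% of those with and without an LSD1(OE) peak. The CHR core was found in 25.5% of member promoters and 15.7% of all promoters, and in 4 of 7 promoters of mitotic genes (57.1%). It was present in 22.5% of the promoters of genes with a myogenic promoter peak and in 36.4% of those without one, in 11.1 and 41.7% for the adipogenic library, and in 15.2 and 44.4% for the LSD1(OE) library. CCAAT was found in 66.7 and 38.3%, GGGCGG in 82.4 and 45.2%, CACGTG in 11.8 and 7.95%, and the E-box CAGCTG in 13.7 and 16.2% of member and all promoters. Each motif was read on both strands, genes with several starts count once per promoter, and a match is a description and not a binding site.

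Other genes of the pathway, 59 in 4 further lists, had promoter peaks most often in the myogenic library. The shares of all genes were 46.8, 27.0 and 37.3% in the myogenic, adipogenic and LSD1(OE) libraries. Of 9 genes of E2F partners and the MuvB complex, 8, 2 and 6 had a promoter peak in the myogenic, adipogenic and LSD1(OE) libraries, with the highest scores at Lin9 (407 in the myogenic library) and Foxm1 (357). Of 26 further replication genes, 24, 11 and 15 had one, led by Tk1, thymidine kinase, with 613, 102 and 642, and by the origin recognition gene Orc2 with 438, 96.7 and 128. For 14 further mitotic genes the counts were 11, 3 and 9, led in the myogenic library by Wee1 (504) and Birc5 (486), and for 10 further Cdk regulators 9, 6 and 7, led by Skp2 (724) and Cks1b (562). Cdkn1c, which encodes the inhibitor p57, had no promoter peak. In all 4 lists the adipogenic library had the fewest, as among the members and over all genes. Its share was below that of all genes for the E2F partners and MuvB complex (22.2%) and the mitotic list (21.4%). It was above that of all genes for the replication list (42.3%) and the Cdk regulators (60.0%).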

How the data were processed

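Lsd1 ChIP-seq libraries of C2C12 cells, 1 ChIP and 1 input for each of 3 conditions, were grouped by the sample labels. The authors mapped reads to mm10 and called the peaks of each ChIP library with MACS 1.4.2, per the file headers, with the matching input as control, at a p cut-off of 1e-05. The deposited tag counts of a peak are not normalized. The score deposited for a peak, 10 times −log10 of its p-value, was computed after the ChIP tags had been scaled up to the input 1.90, 1.28 and 1.82 times in the myogenic, adipogenic and LSD1(OE) libraries. The deposited fold enrichment is a ratio over the local background, which was not compared between libraries, and the deposited FDR is in percent, with a highest value of 0.73%. All peaks passed the limit of 1% and were used.

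Peak centres were assigned to all TSSs of curated RefSeq transcripts (31647 TSSs) within 2000 bp, so that 1 peak may count for neighbouring genes. The members and gene lists were chosen with earlier results of these data known, and counts were set beside all 26180 genes without a test, since there were no replicates. Values are given for the 4 members of each role group with the highest promoter score, each Cdkn gene, members with a peak in an adipogenic library but not the myogenic one, members without peaks, the 5 members with most gene body peaks and up to 2 genes of each further list. Tag density was computed as tags per kb and per 1000000 filtered ChIP tags. Assignment was tested on simulated data. Python 3.11.15, NumPy 2.4.6, pandas 2.3.3, SciPy 1.17.1 and matplotlib 3.10.9 were used. Input reads were not used here, and the deposited peak intervals in BED form were not used.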

Additional observations from a re-analysis of the deposited data

How the results depend on the processing

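The counts of members were recomputed under other settings. Of 91 alternative values of the counts over all members, 72 stayed within 1.5 times the reported count and 19 did not. The adipogenic promoter count fell from 28 to 18 at an FDR under 0.1%, where that of all genes fell to 16.0%, and the count in all 3 libraries fell from 25 to 15. The count without any promoter peak rose from 9 to 14 at that FDR and to 19 when the 18893 strongest peaks of each library were used. With these equal numbers, members had promoter peaks at 35, 28 and 26 promoters in the myogenic, adipogenic and LSD1(OE) libraries, beside 36.4, 27.0 and 29.1% of all genes, which turned the order of the members, with LSD1(OE) lowest. The count in the myogenic and LSD1(OE) libraries only then fell from 7 to 2. The count in the myogenic library only changed from 8 to 5 with equal numbers and to 13 at a score of at least 100. Gene body counts also moved. In the myogenic library (12) they were 7 at the stricter FDR, 7 at a score of at least 100, 6 with equal numbers, 6 with a window of 5000 bp and 7 with ChIP tags not scaled up. In the adipogenic library (7) they were 3 at the stricter FDR, 4 at that score and 11 with a window of 1000 bp. In the LSD1(OE) library (9) they were 4 at the stricter FDR, 5 at that score, 5 with equal numbers and 5 with the wider window.

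Of 180 alternative counts of role groups, 21 moved by over 1.5 times. At an FDR under 0.1% the adipogenic library left 0 replication genes and 1 of the cyclins and Cdks. In the LSD1(OE) library the cyclins and Cdks fell from 9 to 5 at that FDR, at a score of at least 100 and with equal numbers, and the mitotic and Cdc25 genes from 3 to 1 under these settings and with ChIP tags not scaled up. A peak that covers a TSS, a setting chosen after seeing the data, gave 40, 26 and 34 members, with Myc among those of LSD1(OE) cells. The cause of these changes was not tested. No paired analysis was possible because each condition had 1 ChIP library and no test was made. The fewest tags of a peak, 27, 35 and 30, limit what could be detected.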
